A study of Mus musculus with 9 samples.

Results

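The genes of the T-cell receptor complex, its co-receptors and its proximal signalling machinery were examined in T15 cells, a murine Smarcb1-negative peripheral T-cell lymphoma (PTCL) line. The 37 members were listed by gene name, with earlier results of these data known, and all 37 were found among the 35288 gene identifiers of the count table. RNA of 9 libraries was sequenced. The 3 control libraries came from T15 cells that the study calls untreated, while the labels mention both a vehicle for the drug arm and a Smarcb1-free plasmid for the re-expression arm without saying which of these, if any, the control cells received. The 3 SAHA libraries came from cells that were given SAHA (vorinostat), a histone deacetylase inhibitor, at 1 µM, 2 times within 72 h. The 3 Smarcb1-RE libraries came from cells that carried a lentiviral, doxycycline-inducible Smarcb1 construct (pInd20), were selected with G418 and were induced with 0.5 µg/µl doxycycline for 72 h. All 9 libraries thus come from 1 cell line grown in culture. Transduction, G418, doxycycline and the choice of clones cannot be told apart from Smarcb1 itself in the Smarcb1-RE libraries. The paper states that stable clones were set up after selection, without saying which of them were sequenced. Differences between clones were not tested.

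In T cells the antigen receptor has no enzymatic activity of its own. It relies on the CD3 and zeta chains, whose tyrosine motifs are phosphorylated by the kinase Lck, which CD4 or CD8 bring to the receptor, and then bind the kinase ZAP-70. ZAP-70 phosphorylates the scaffolds LAT and SLP-76, from which phospholipase C-gamma-1, Vav1, protein kinase C-theta and the Ras activator RasGRP1 carry the signal on. The phosphatase CD45, the kinase Csk, further phosphatases and ubiquitin ligases set how strongly the receptor signals.

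Library totals lay between 20900477 and 24941494 counts, and 13697 genes passed the filter on low counts. Levels are given as CPM after TMM scaling. A count of 3 was taken as the smallest level that can be told from 0, which is 0.123 to 0.133 CPM depending on the library and allows for counting error alone. Smarcb1 itself had 2, 5 and 8 counts in control replicates 1 to 3, 7, 13 and 3 after SAHA and 151, 147 and 142 after re-expression. The re-expressed cells differed from control by a log2 fold change of 4.89 (SE 0.36, adjusted p = 6.19e-08, edgeR's quasi-likelihood test). The library of control replicate 1 stood apart, with a chi-square of 12.5 and 14.1 per gene against the other control libraries, whereas all other replicate pairs gave between 2.07 and 4.55, so results that change without it are marked. The study calls the replicates biological, and the p-values measure the spread between these libraries. Differences between clones need not be part of that spread.

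Most of the machinery was well expressed in T15 cells, and the remainder was almost silent. In total, 24 members reached at least 10 CPM in every library and covered the range from 24.2 to 1670 CPM. Protein kinase C-theta (Prkcq) lay between 0.423 and 4.29 CPM, and the other 12 members stayed under 1 CPM in each of the 9 libraries. Per kilobase of exon, the most abundant members of the control libraries were Cd3g with 413 RPKM, Cd8b1 with 399 RPKM and Lat with 383 RPKM. In SAHA libraries the order was led by Cd3g with 543 RPKM and Cd8b1 with 470 RPKM. In Smarcb1-RE libraries Cd8b1 with 343 RPKM and Cd3g with 325 RPKM were followed by Ptprc with 321 RPKM, which had held the 9th place among the 27 tested members in control libraries with 125 RPKM. The line is labelled as a T-cell lymphoma, and the CD3 chains, both CD8 chains and Lck were well expressed, whereas the T-cell surface genes Cd4, Cd2, Cd5 and Thy1 were at or near 0 counts.

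**Figure D1:**
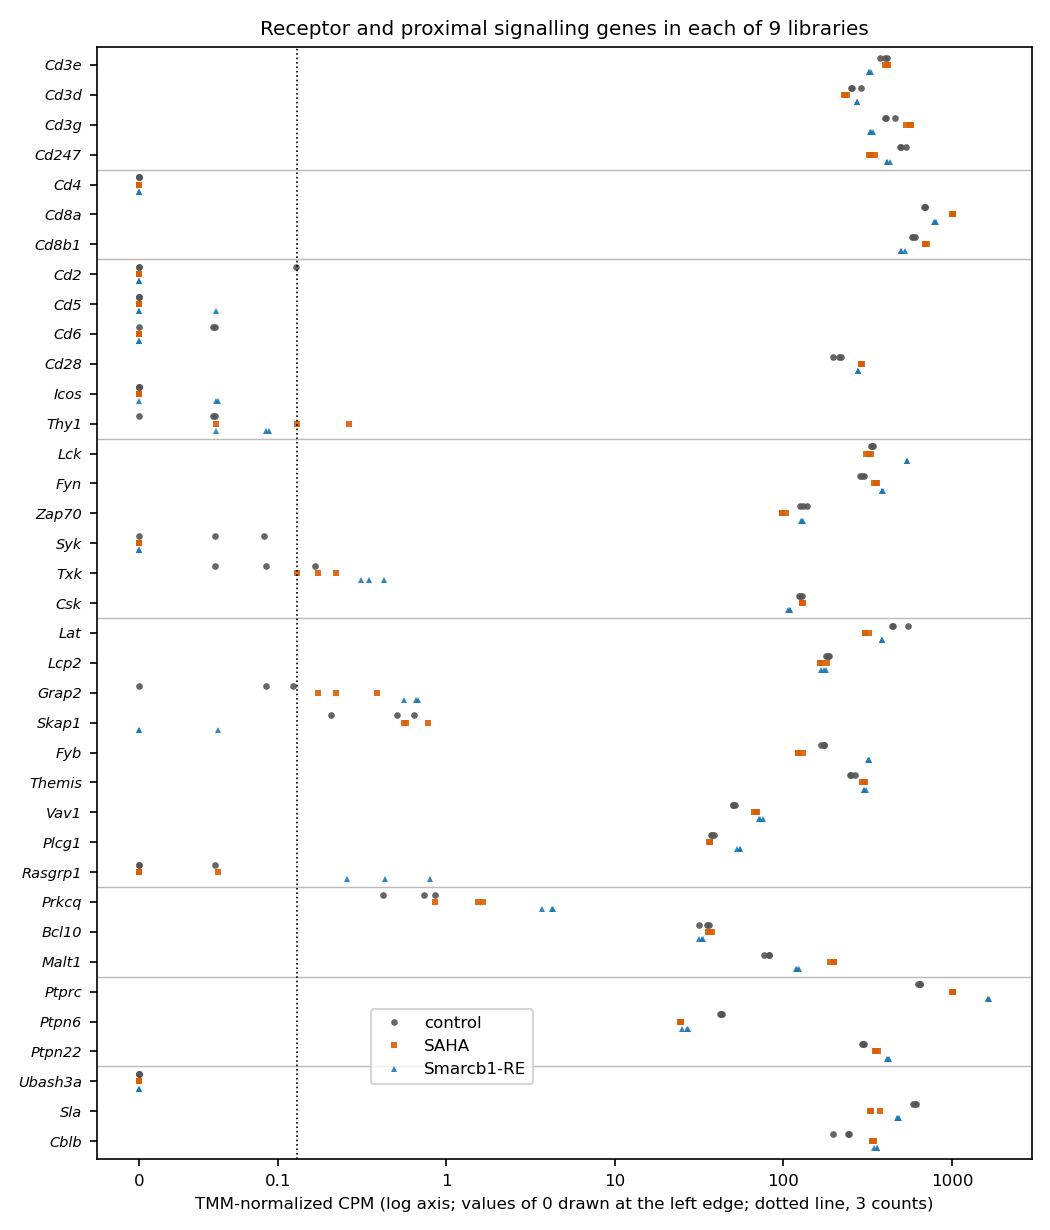
Level of each of the 37 members in each of the 9 libraries, as TMM-normalized CPM on a log axis, ordered by role; grey circles are control, orange squares SAHA and blue triangles Smarcb1-RE libraries, values of 0 are drawn at the left edge and the dotted line marks 3 counts. The 24 members at 24.2 CPM or more form a cloud on the right that is clearly separated from 12 members under 1 CPM, with Prkcq between them.

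Both treatments changed many members, in both directions, and mostly by less than a doubling. In SAHA against control, 11 of the 24 well-expressed members were called higher and 7 lower at an adjusted p under 0.05, beside 66.9% of all 13697 tested genes called in either direction, 32.6% higher and 34.3% lower. In Smarcb1-RE against control, 12 were higher and 8 lower, beside 77.8% of all genes, 39.2% higher and 38.6% lower. In Smarcb1-RE against SAHA, 12 were higher and 7 lower, beside 74.6% of all genes, 37.7% higher and 36.8% lower. The libraries of the groups did not overlap in CPM for 21, 20 and 22 of the 24 in these 3 comparisons, beside 68.7%, 79.5% and 80% of all genes. The shares of members called, 75%, 83.3% and 79.2%, were thus near those of all genes. All 27 tested members gave 13 higher and 7 lower, 14 higher and 9 lower, and 14 higher and 8 lower in the same order, but Grap2 and Skap1 passed the filter on low counts only through the groups in which they were high. The first 2 of these comparisons share the control libraries, so their values are given side by side and were not compared as independent results.

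The sizes were moderate. At the median, the 24 members had a log2 fold change of 0.08 with SAHA and 0.12 with Smarcb1-RE, against 0.00 and 0.01 over all tested genes. The median absolute log2 fold change was 0.40 with SAHA, against 0.37 over all genes, and 0.34 with Smarcb1-RE, against 0.53 over all genes. Only 1 of the 24 passed an absolute log2 fold change of 1 in each comparison, namely Malt1 with SAHA, Ptprc with Smarcb1-RE and Fyb between the treatments, beside 12.2%, 23.6% and 19.8% of all genes called at that size. Summed over all 37 members, the level was 6980 to 7170 CPM in control, 7700 to 7790 CPM in SAHA and 8420 to 8580 CPM in Smarcb1-RE libraries. Without Ptprc these sums were 6330 to 6540, 6700 to 6770 and 6790 to 6910 CPM, so that Ptprc made up most of the gap between the treatments. In these bulk libraries, fewer cells that express a gene and less RNA per cell cannot be told apart.

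**Figure D2:**
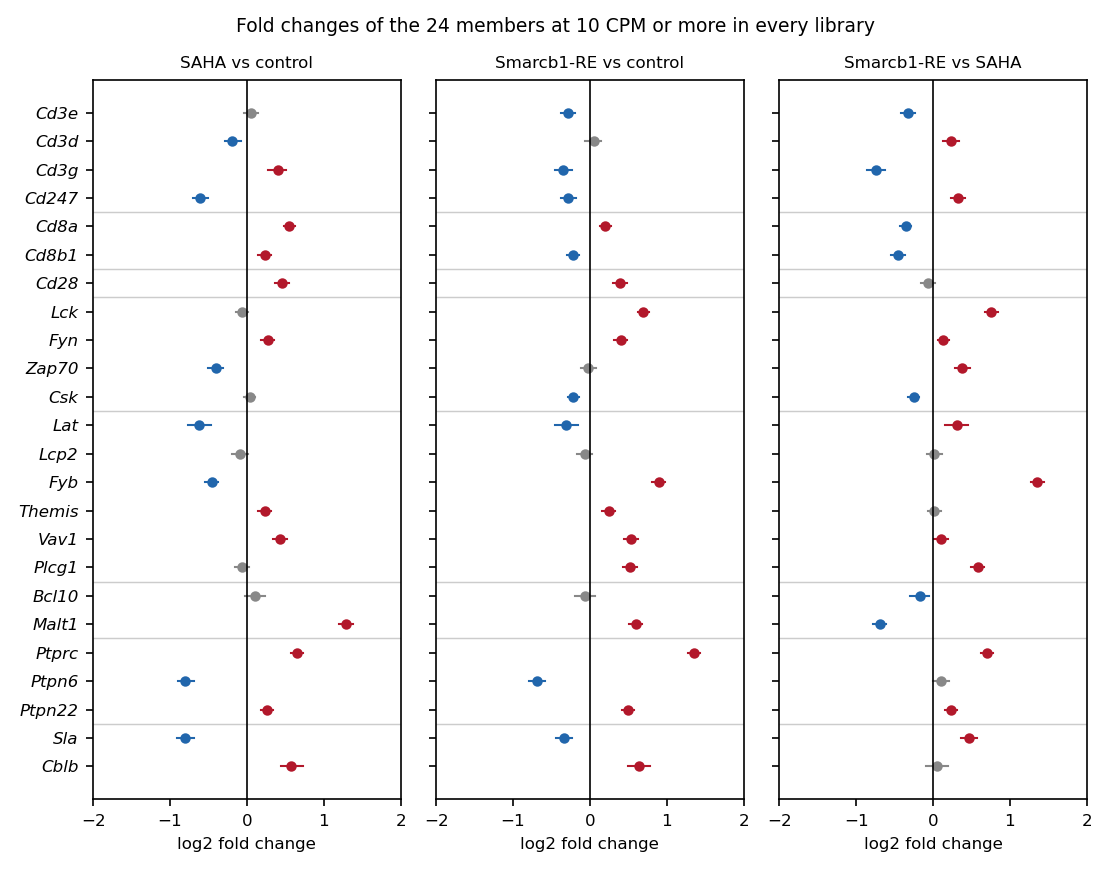
Log2 fold change (point) with its 95% confidence interval (line) for the 24 members at 10 CPM or more in every library, from edgeR's quasi-likelihood fit, in 3 comparisons; red marks genes called higher, blue lower and grey not called, and grey rules separate the roles. Most intervals lie within 1 log2 unit of 0, Malt1 stands out with SAHA at 1.29, Ptprc with Smarcb1-RE at 1.36 and Fyb between the treatments at 1.35.

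The CD3 and zeta chains did not move as a unit. Cd3g, the CD3 gamma chain, had 460, 404 and 402 CPM in control, 536, 560 and 570 CPM in SAHA and 339, 327 and 330 CPM in Smarcb1-RE libraries. The 3 groups did not overlap, with SAHA above and Smarcb1-RE below control. The log2 fold change of Cd3g was 0.40 with SAHA (SE 0.05, adjusted p = 2.28e-05) and -0.35 with Smarcb1-RE (SE 0.05, adjusted p = 5.17e-05), and the treatments differed by -0.74 (SE 0.05, adjusted p = 4.56e-08).

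Cd3d, the CD3 delta chain, fell with SAHA. It had 287, 255 and 253 CPM in control, 239, 231 and 228 CPM in SAHA and 272, 275 and 274 CPM in Smarcb1-RE libraries. All SAHA libraries lay below all control libraries, while the Smarcb1-RE libraries fell within the control range, where replicate 1 was the highest. Its log2 fold change was -0.19 with SAHA (SE 0.05, adjusted p = 4.06e-03) and 0.05 with Smarcb1-RE (SE 0.05, 95% interval -0.06 to 0.15, adjusted p = 0.391). Without control replicate 1 the latter was 0.10 and passed the test (adjusted p = 9.45e-03).

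The genes of these 2 chains are neighbours on chromosome 9 and are transcribed away from each other. Cd3d (ENSMUSG00000032094) lies on the plus strand at chr9:44981786-44987339 and Cd3g (ENSMUSG00000002033) on the minus strand at chr9:44969572-44980431 (GRCm38), with their starts 1355 bp apart. The ratio of Cd3g to Cd3d counts was 1.6, 1.59 and 1.59 in control replicates 1 to 3, 2.24, 2.43 and 2.50 after SAHA and 1.25, 1.19 and 1.2 after re-expression. This ratio needs no scaling between libraries, and its 3 groups did not overlap. The 250 bases before each start are shown because the genes start so close to each other and moved in opposite directions with SAHA. They are from RefSeq (GRCm38.p6), written 5′ to 3′ on the gene's strand, at chr9:44981536-44981785 (plus) and chr9:44980432-44980681 (minus). Capitals mark matches on either strand to the letters AGGAAG (an ETS core) and CTTTGA (a TCF/LEF core).
Cd3d: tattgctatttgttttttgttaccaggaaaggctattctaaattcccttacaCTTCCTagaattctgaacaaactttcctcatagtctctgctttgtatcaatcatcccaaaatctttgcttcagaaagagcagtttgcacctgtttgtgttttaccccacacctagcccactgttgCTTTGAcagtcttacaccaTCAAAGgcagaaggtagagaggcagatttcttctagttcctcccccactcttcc
Cd3g: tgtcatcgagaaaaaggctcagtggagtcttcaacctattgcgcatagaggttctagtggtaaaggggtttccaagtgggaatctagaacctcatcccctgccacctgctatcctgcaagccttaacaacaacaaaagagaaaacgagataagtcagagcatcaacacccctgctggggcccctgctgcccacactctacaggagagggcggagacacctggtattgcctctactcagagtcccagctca
The stretch of Cd3d holds 1 match to the ETS letters and 2 to the TCF/LEF letters and no CpG. The stretch of Cd3g holds none of the motif letters searched and 4 CpGs.

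Cd3e, the CD3 epsilon chain, passed the test against control only with Smarcb1-RE. It had 374, 402 and 410 CPM in control, 403, 409 and 417 CPM in SAHA and 324, 324 and 330 CPM in Smarcb1-RE libraries. SAHA and control overlapped, and all Smarcb1-RE libraries lay below both. Cd3e fell with Smarcb1-RE by 0.28 on the log2 scale (SE 0.04, adjusted p = 4.23e-05) and had a log2 fold change of 0.05 with SAHA (SE 0.04, 95% interval -0.04 to 0.14, adjusted p = 0.294).

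Cd247, the zeta chain that carries most of the receptor's tyrosine motifs, was lower in both treatments. It had 533, 498 and 494 CPM in control, 348, 323 and 330 CPM in SAHA and 431, 413 and 414 CPM in Smarcb1-RE libraries. The groups were fully separated in the order SAHA, Smarcb1-RE, control. Cd247 fell by 0.61 on the log2 scale with SAHA (SE 0.04, adjusted p = 1.26e-07) and by 0.28 with Smarcb1-RE (SE 0.04, adjusted p = 7.32e-05). In total, 1 of 4 chains was higher and 2 were lower with SAHA, beside 32.6% and 34.3% of all genes. With Smarcb1-RE, 0 of 4 were higher and 3 lower, beside 39.2% and 38.6% of all genes. The share called in either direction was 75% in both comparisons, near the 66.9% and 77.8% of all genes. The number lower with Smarcb1-RE held under all 3 scalings tried. Cd3d was called higher besides when libraries were scaled to their totals only (0.21, adjusted p = 1.16e-03).

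**Figure D3:**
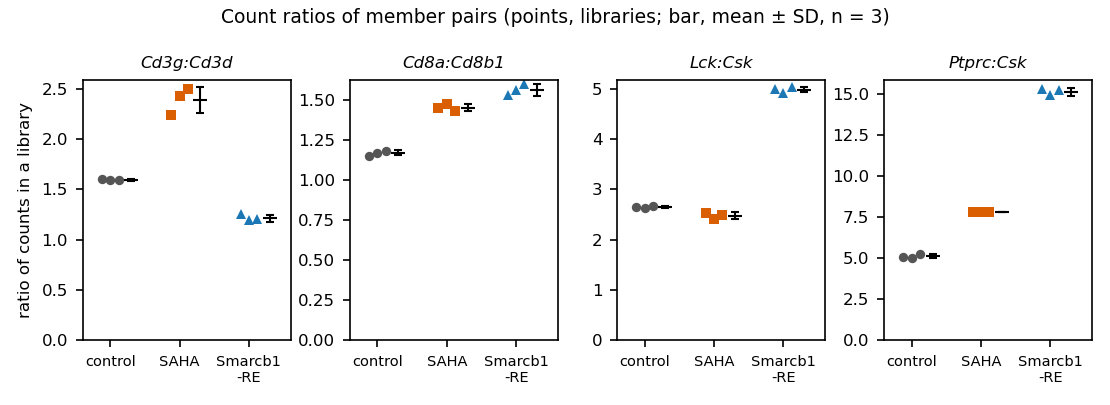
Ratio of the counts of 2 members within a library, for Cd3g to Cd3d, Cd8a to Cd8b1, Lck to Csk and Ptprc to Csk; points are the 3 libraries of a group, and bars the mean ± SD. All axes start at 0. In every panel the Smarcb1-RE libraries are separated from the control libraries, below them for Cd3g to Cd3d and above them for the other pairs.

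The co-receptor of T15 cells was CD8. Cd8a had 694, 691 and 686 CPM in control, 1000, 1020 and 1010 CPM in SAHA and 801, 781 and 796 CPM in Smarcb1-RE libraries. The groups were fully separated, with SAHA highest. Cd8a rose by 0.55 on the log2 scale with SAHA (SE 0.03, adjusted p = 3.08e-08) and by 0.20 with Smarcb1-RE (SE 0.03, adjusted p = 1.41e-04).

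Cd8b1, the beta chain that pairs with the alpha chain on conventional cytotoxic T cells, had 605, 589 and 582 CPM in control, 689, 694 and 708 CPM in SAHA and 525, 501 and 498 CPM in Smarcb1-RE libraries. SAHA lay above and Smarcb1-RE below control in every library. The log2 fold change was 0.23 with SAHA (SE 0.04, adjusted p = 1.16e-04) and -0.22 with Smarcb1-RE (SE 0.04, adjusted p = 1.40e-04), the latter -0.06 and past no threshold when libraries were scaled to their totals only (adjusted p = 0.122). Both genes lie on the plus strand of chromosome 6, 35.9 kb apart. The ratio of Cd8a to Cd8b1 counts was 1.17 ± 0.0176 in control, 1.45 ± 0.0198 in SAHA and 1.56 ± 0.0351 in Smarcb1-RE libraries (mean ± SD, n = 3 each). Its lowest value in a treated library, 1.43, was above the highest control value, 1.18. Cd4 had 0 counts in all 9 libraries.

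Of the 6 accessory receptors, Cd28 was the only 1 above the filter. Cd28, the main co-stimulatory receptor of naive T cells, had 198, 214 and 220 CPM in control, 287, 292 and 289 CPM in SAHA and 277, 277 and 276 CPM in Smarcb1-RE libraries. Both treated groups were above all control libraries. It rose by 0.46 on the log2 scale with SAHA (SE 0.04, adjusted p = 8.94e-07) and by 0.39 with Smarcb1-RE (SE 0.04, adjusted p = 1.88e-06), and the treatments differed by -0.06 (SE 0.04, 95% interval -0.15 to 0.03, adjusted p = 0.181). This last difference passed the test without control replicate 1 (-0.07, adjusted p = 0.0289) and in a separate fit of these groups (adjusted p = 0.0333), and was 0.10 when libraries were scaled to their totals only (adjusted p = 0.0704).

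Among the 4 tested tyrosine kinases, Lck separated the treatments most. Lck, the co-receptor-bound kinase that starts the cascade, had 335, 338 and 330 CPM in control, 329, 310 and 323 CPM in SAHA and 544, 540 and 540 CPM in Smarcb1-RE libraries. All Smarcb1-RE libraries were far above the rest, and the highest SAHA library was just below the lowest control library. Lck rose by 0.69 on the log2 scale with Smarcb1-RE (SE 0.04, adjusted p = 2.64e-09), had a log2 fold change of -0.06 with SAHA (SE 0.04, 95% interval -0.14 to 0.02, adjusted p = 0.155) and differed between the treatments by 0.76 (SE 0.04, adjusted p = 1.43e-09).

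Csk, the kinase that phosphorylates the inhibitory site of Lck, had 126, 129 and 124 CPM in control, 130, 129 and 129 CPM in SAHA and 109, 110 and 107 CPM in Smarcb1-RE libraries. It was lower in every Smarcb1-RE library than in any other. Csk fell by 0.22 on the log2 scale with Smarcb1-RE (SE 0.04, adjusted p = 9.61e-05), although not when libraries were scaled to their totals only (-0.06, adjusted p = 0.151), and had a log2 fold change of 0.04 with SAHA (SE 0.04, 95% interval -0.04 to 0.11, adjusted p = 0.378). Within a library, the ratio of Lck to Csk counts was 2.65 ± 0.0224 in control, 2.48 ± 0.0635 in SAHA and 4.99 ± 0.0584 in Smarcb1-RE libraries (mean ± SD, n = 3 each), which does not depend on the scaling.

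Fyn, a kinase of the same family as Lck, had 299, 293 and 286 CPM in control, 345, 355 and 359 CPM in SAHA and 392, 383 and 387 CPM in Smarcb1-RE libraries. The groups were separated in that order. It rose by 0.27 on the log2 scale with SAHA (SE 0.04, adjusted p = 2.90e-05) and by 0.40 with Smarcb1-RE (SE 0.04, adjusted p = 4.11e-07). Zap70, the kinase that docks to the phosphorylated chains, had 138, 125 and 130 CPM in control, 103, 97.5 and 97.5 CPM in SAHA and 127, 129 and 131 CPM in Smarcb1-RE libraries. The SAHA libraries were lowest, and Smarcb1-RE overlapped with control. Zap70 fell by 0.40 on the log2 scale with SAHA (SE 0.04, adjusted p = 4.60e-06). Its log2 fold change with Smarcb1-RE was -0.02 (SE 0.04, 95% interval -0.11 to 0.08, adjusted p = 0.694), and 0.14 with a pass of the test when libraries were scaled to their totals only (adjusted p = 9.96e-03).

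Of the well-expressed adaptors and effectors, Fyb differed most between the treatments. Fyb, an adaptor that links SLP-76 to integrin activation, had 167, 174 and 173 CPM in control, 131, 122 and 122 CPM in SAHA and 321, 316 and 324 CPM in Smarcb1-RE libraries. SAHA was below and Smarcb1-RE above control in every library. The log2 fold change of Fyb was -0.45 with SAHA (SE 0.04, adjusted p = 6.48e-07) and 0.90 with Smarcb1-RE (SE 0.04, adjusted p = 5.11e-10), and the treatments differed by 1.35 (SE 0.04, adjusted p = 2.17e-11).

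The scaffold Lat, on which the signalling complex assembles, had 545, 447 and 439 CPM in control, 323, 306 and 304 CPM in SAHA and 382, 386 and 387 CPM in Smarcb1-RE libraries. Control replicate 1 was the highest of all, and both treated groups were below all control libraries. Lat fell by 0.62 on the log2 scale with SAHA (SE 0.07, adjusted p = 5.43e-06) and by 0.31 with Smarcb1-RE (SE 0.07, adjusted p = 1.19e-03), the latter by 0.15 and short of the threshold when libraries were scaled to their totals only (adjusted p = 0.0533). Lcp2, which encodes SLP-76, the partner scaffold of LAT, had 178, 186 and 183 CPM in control, 182, 165 and 167 CPM in SAHA and 180, 167 and 175 CPM in Smarcb1-RE libraries. All 3 groups overlapped. Its log2 fold change was -0.09 with SAHA (95% interval -0.19 to 0.01, adjusted p = 0.105), which passed without control replicate 1 (-0.11, adjusted p = 0.0487) and without SAHA replicate 1 (-0.14, adjusted p = 0.0196), and -0.07 with Smarcb1-RE (95% interval -0.17 to 0.03, adjusted p = 0.184).

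Plcg1, phospholipase C-gamma-1, which releases the messengers for calcium and diacylglycerol signalling, had 37.3, 38.8 and 37.7 CPM in control, 36.5, 36.9 and 36.1 CPM in SAHA and 55.0, 55.2 and 53.1 CPM in Smarcb1-RE libraries. The Smarcb1-RE libraries were highest throughout. Plcg1 rose by 0.52 on the log2 scale with Smarcb1-RE (SE 0.04, adjusted p = 1.04e-07) and had a log2 fold change of -0.06 with SAHA (SE 0.04, 95% interval -0.15 to 0.03, adjusted p = 0.252). Vav1, the exchange factor that links the receptor to the actin skeleton, and Themis, an adaptor required for thymocyte selection, were called higher in both treatments. The log2 fold change of Vav1 was 0.43 with SAHA and 0.53 with Smarcb1-RE, and that of Themis 0.23 and 0.25. The difference of Vav1 between the treatments, 0.10 (SE 0.04, adjusted p = 0.0410), was lost with DESeq2 (adjusted p = 0.14), with median-ratio factors (adjusted p = 0.0626), with no filter (adjusted p = 0.124) and without any 1 of 8 of the 9 libraries. For Themis it was 0.02 (95% interval -0.07 to 0.10, adjusted p = 0.715), but 0.18 and past the threshold with library totals only (adjusted p = 1.09e-03).

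Downstream of these, Malt1 was the member with the largest change by SAHA among the 24. Malt1, a protease that works with Bcl10 to activate NF-kappaB, had 77.2, 81.7 and 81.7 CPM in control, 190, 199 and 199 CPM in SAHA and 124, 120 and 119 CPM in Smarcb1-RE libraries. The 3 groups were widely separated. Malt1 rose by 1.29 on the log2 scale with SAHA (SE 0.04, adjusted p = 4.03e-10) and by 0.60 with Smarcb1-RE (SE 0.04, adjusted p = 3.06e-08), and the treatments differed by -0.69 (SE 0.04, adjusted p = 6.61e-09).

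Its partner Bcl10 had 36.1, 35.1 and 31.5 CPM in control, 36.8, 35.8 and 37.6 CPM in SAHA and 33.4, 33.0 and 31.4 CPM in Smarcb1-RE libraries. Control overlapped with both treated groups, and SAHA lay above Smarcb1-RE. The log2 fold change of Bcl10 was 0.10 with SAHA (95% interval -0.02 to 0.23, adjusted p = 0.118) and -0.07 with Smarcb1-RE (95% interval -0.19 to 0.06, adjusted p = 0.284), the former past the threshold without control replicate 1 (0.14, adjusted p = 0.0323) and the latter without control replicate 3 (-0.14, adjusted p = 0.0299). The treatments differed by -0.17 (SE 0.06, adjusted p = 0.0143), which was -0.01 when libraries were scaled to their totals only (adjusted p = 0.812) and did not pass without Smarcb1-RE replicate 3 (-0.15, adjusted p = 0.0683).

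Prkcq, the protein kinase C isoform that feeds this complex in T cells, was low in control libraries and rested on few reads. It had 20, 10 and 18 counts in control, 38, 35 and 20 with SAHA and 99, 97 and 85 with Smarcb1-RE. In CPM no groups overlapped, although SAHA replicate 3 with 0.861 CPM was next to control replicate 1 with 0.850 CPM. Prkcq rose by 2.59 on the log2 scale with Smarcb1-RE (SE 0.28, adjusted p = 2.40e-06) and by 1.00 with SAHA (SE 0.31, adjusted p = 0.0114), the latter short of the threshold without SAHA replicate 1 (0.83, adjusted p = 0.0511).

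The phosphatases held the largest change of the well-expressed members. Ptprc (ENSMUSG00000026395), which encodes CD45, the phosphatase that removes the inhibitory phosphate from Lck, had 633, 643 and 647 CPM in control, 1010, 999 and 1010 CPM in SAHA and 1670, 1630 and 1630 CPM in Smarcb1-RE libraries. The groups were separated by wide gaps. Ptprc rose by 0.65 on the log2 scale with SAHA (SE 0.03, adjusted p = 9.74e-09) and by 1.36 with Smarcb1-RE (SE 0.03, adjusted p = 8.70e-12), a 2.56-fold increase, and the treatments differed by 0.70 (SE 0.03, adjusted p = 1.45e-09). In Smarcb1-RE libraries it was the most abundant member by CPM. The ratio of Ptprc to Csk counts was 5.09 ± 0.123 in control, 7.79 ± 0.0183 in SAHA and 15.1 ± 0.220 in Smarcb1-RE libraries (mean ± SD, n = 3 each).

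Ptprc lies on the minus strand at chr1:138062861-138175708. The 250 bases before the RefSeq start listed first for it (GRCm38.p6, chr1:138175306-138175555, minus strand) are shown because Ptprc carried the largest change of the well-expressed members with Smarcb1-RE. These bases lie inside the span of the gene. Capitals mark matches on either strand to the ETS letters AGGAAG, the TCF/LEF letters CTTTGA and the TATA box letters TATAAA.
Ptprc: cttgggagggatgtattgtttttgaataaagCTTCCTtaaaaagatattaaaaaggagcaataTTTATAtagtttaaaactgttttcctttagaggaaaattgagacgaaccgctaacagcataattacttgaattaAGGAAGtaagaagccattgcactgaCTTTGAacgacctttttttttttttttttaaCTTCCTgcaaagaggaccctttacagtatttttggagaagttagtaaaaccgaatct
This stretch holds 3 matches to the ETS letters, 1 to the TCF/LEF letters and 1 to the TATA letters, and 31.6% of its bases are G or C. The window of a further RefSeq start of Ptprc (chr1:138175077-138175376) holds the ETS letters but neither the TCF/LEF nor the TATA letters.

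Ptpn6, which encodes SHP-1, a phosphatase that dampens receptor signalling, went the other way. It had 43.2, 42.1 and 42.4 CPM in control, 24.6, 24.7 and 24.2 CPM in SAHA and 27.1, 25.1 and 26.9 CPM in Smarcb1-RE libraries. Both treated groups were below all control libraries. Ptpn6 fell by 0.80 on the log2 scale with SAHA (SE 0.05, adjusted p = 2.30e-08) and by 0.69 with Smarcb1-RE (SE 0.05, adjusted p = 2.66e-08), and the treatments differed by 0.11 (SE 0.05, 95% interval 0.00 to 0.21, adjusted p = 0.0699), which passed without Smarcb1-RE replicate 2 (0.14, adjusted p = 0.0344), with a minimum of 10 counts in every library (0.13, adjusted p = 0.0370) and with library totals only (0.26, adjusted p = 2.76e-04). Ptpn22, a phosphatase that acts with Csk on Lck, had 291, 302 and 295 CPM in control, 352, 350 and 364 CPM in SAHA and 417, 413 and 425 CPM in Smarcb1-RE libraries. The groups were separated in that order. It rose by 0.26 on the log2 scale with SAHA (SE 0.04, adjusted p = 3.29e-05) and by 0.50 with Smarcb1-RE (SE 0.04, adjusted p = 5.08e-08).

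Of the negative adaptors and ubiquitin ligases, Sla fell and Cblb rose in both treatments. Sla, an adaptor that promotes the turnover of receptor chains, had 612, 604 and 589 CPM in control, 375, 333 and 328 CPM in SAHA and 485, 477 and 470 CPM in Smarcb1-RE libraries. No groups overlapped. Sla fell by 0.80 on the log2 scale with SAHA (SE 0.05, adjusted p = 3.33e-08) and by 0.34 with Smarcb1-RE (SE 0.05, adjusted p = 4.08e-05). Cblb, a ubiquitin ligase that restrains T cells lacking co-stimulation, had 197, 245 and 240 CPM in control, 337, 343 and 340 CPM in SAHA and 359, 357 and 343 CPM in Smarcb1-RE libraries. Control replicate 1 was the lowest library, and all treated libraries lay above all control libraries. Cblb rose by 0.58 on the log2 scale with SAHA (SE 0.07, adjusted p = 6.52e-06) and by 0.64 with Smarcb1-RE (SE 0.07, adjusted p = 1.67e-06), and the treatments differed by 0.05 (SE 0.07, 95% interval -0.09 to 0.20, adjusted p = 0.466), a difference that was 0.21 and passed with library totals only (adjusted p = 0.0142).

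The 12 members under 1 CPM were of unequal kinds. Cd4 and Ubash3a, a negative regulator of receptor signalling, had 0 counts in all 9 libraries, which allows a level of up to 0.123 to 0.133 CPM. Cd2, an adhesion receptor, had 3 counts in control replicate 1 and 0 in each other library. Cd5 had 1 count in total, Cd6 and the co-stimulatory receptor Icos 2 counts each, and Syk, the relative of Zap70, 3 counts. The count of Cd5 and those of Icos were in Smarcb1-RE libraries, and those of Cd6 and Syk in control libraries. For these 7 genes no comparison between the groups can be made at this depth.

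The other 5 had more reads in some group. Skap1, an adaptor that works with Fyb in integrin activation, had 15, 12 and 5 counts in control, 13, 13 and 18 with SAHA and 0, 1 and 0 with Smarcb1-RE. The ratio of summed counts of Smarcb1-RE to control, corrected for library size, was 0.0323 (95% counting interval 7.93e-04 to 0.193). Skap1 passed the filter only through control and SAHA libraries, so a lower value with Smarcb1-RE was favoured by the filter, and no test of it is given.

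Rasgrp1, the exchange factor that activates Ras downstream of diacylglycerol, had 0, 1 and 0 counts in control, 0, 1 and 0 with SAHA and 6, 18 and 10 with Smarcb1-RE. It did not pass the filter. All Smarcb1-RE libraries were above the other 6 libraries, and the ratio of summed counts to control was 35.1 (95% counting interval 5.89 to 1430). Grap2, the adaptor that brings SLP-76 to LAT, had 0, 2 and 3 counts in control, 4, 5 and 9 with SAHA and 16, 15 and 13 with Smarcb1-RE. It passed the filter only through the Smarcb1-RE libraries, and its ratio of summed counts was 3.73 with SAHA (1.34 to 12.9) and 9.09 with Smarcb1-RE (3.61 to 29.4). The call with SAHA (adjusted p = 0.0268) was lost with DESeq2 (adjusted p = 0.0540), without control replicate 1 (adjusted p = 0.0803), without control replicate 2 (adjusted p = 0.0535) and without SAHA replicate 3 (adjusted p = 0.126). Txk, a Tec-family kinase, had 7 counts in the control group, 12 in the SAHA group and 25 in the Smarcb1-RE group. Thy1, the surface antigen of mouse T cells, had 2, 10 and 5 counts in the same order.

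Promoters of the members were looked up in RefSeq (GRCm38.p6), as windows of 300 bases from 250 before to 50 after a listed transcript start. Where a gene had more than 1, the first was counted. For some members this start lies inside the gene's span. The window of Fyb begins at chr15:6579597 and its span at chr15:6522853. A window was found for 27 of 37 members, and none for Cd4, Cd8b1, Cd2, Cd6, Cd28, Icos, Thy1, Skap1, Malt1 and Sla. They were searched on both strands for the ETS letters AGGAAG, the RUNX letters TGTGGT, the E-box letters CAGCTG, the TCF/LEF letters CTTTGA and the TATA box letters TATAAA, none of which contains another. The ETS letters were found in 13 of 20 windows (65%) of members at 10 CPM or more and in 3 of 7 (42.9%) of members under that level, against 35.1% of the first-listed windows of 27025 genes. The TCF/LEF letters were found in 6 of the 20 (30%) and 1 of the 7 (14.3%), against 16.2% of all genes. The E-box letters were present in 3 of the 20 (15%), against 16.1%, the RUNX letters in 2 (10%), against 16.9%, and the TATA letters in 2 (10%), against 14.2%. The median number of CpGs per window was 7.5 for the well-expressed and 6.0 for the other members, against 7.0 for all genes. The number ranged from 0 to 31 in the former and from 2 to 37 in the latter. A match is a description of letters and no sign of a factor's binding.

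The other genes of the pathway, 69 by list of which 62 were tested, moved in both directions as well. With SAHA 27 were called higher and 19 lower, with Smarcb1-RE 26 higher and 26 lower, and between the treatments 21 were higher and 29 lower in Smarcb1-RE. The shares called, 74.2%, 83.9% and 80.6%, were near the 66.9%, 77.8% and 74.6% of all genes. Their median log2 fold change was 0.11 with SAHA, 0.04 with Smarcb1-RE and -0.06 between the treatments. When libraries were scaled to their totals only, Smarcb1-RE had 33 higher and 16 lower, beside 6476 higher and 4141 lower of all 13697 genes.

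In the calcium branch, 8 of 9 genes were called higher with SAHA and 0 lower, with a median log2 fold change of 0.40, beside the 32.6% of all genes called higher. The largest of these was Orai1, the pore of the store-operated calcium channel, with 11.5, 11.1 and 10.8 CPM in control, 26.7, 32.7 and 32.5 CPM in SAHA and 11.3, 9.47 and 12.1 CPM in Smarcb1-RE libraries. Orai1 was high in the SAHA libraries only, with a log2 fold change of 1.46 (SE 0.10, adjusted p = 5.61e-08), and the treatments differed by -1.48 (SE 0.10, adjusted p = 2.29e-08). With Smarcb1-RE, 6 of 8 further kinases and kinase regulators were lower and 1 higher, beside 38.6% and 39.2% of all genes, which became 4 and 2 with library totals only. Between the treatments, 7 of 10 genes of the Ras and MAP kinase branch were lower and 1 higher in Smarcb1-RE, beside 36.8% and 37.7% of all genes, which became 6 and 3 with library totals only. Over all 13697 tested genes, library totals only gave 6476 higher and 4141 lower in Smarcb1-RE than in control. Between the treatments it gave 6441 and 3924. Of 9 negative regulators, 5 were higher and 1 lower in Smarcb1-RE than in SAHA, which became 7 and 1 with library totals only. The counts that follow were less one-sided. The calcium branch gave 5 higher and 3 lower with Smarcb1-RE, which became 5 and 0 with library totals only. Between the treatments it gave 4 higher and 5 lower. With SAHA, the PI3 kinase branch gave 3 higher and 3 lower, and the NF-kappaB inputs 2 and 2.

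Dgka, a kinase that removes diacylglycerol, had the largest called increase of this list with SAHA. It rose by 1.86 on the log2 scale (SE 0.09, adjusted p = 5.07e-09), from 8.37 to 10.7 CPM in control to 30.6 to 36.2 CPM. Dgka also rose by 1.95 with Smarcb1-RE (SE 0.09, adjusted p = 6.85e-10). The adaptor Gab2 rose by 1.61 with SAHA (SE 0.19, adjusted p = 1.06e-05). Ptpn7, a phosphatase of MAP kinases, fell by 1.17 with SAHA (SE 0.05, adjusted p = 3.66e-09), from 334 to 363 CPM in control to 147 to 167 CPM. The ubiquitin ligase Itch fell by 0.79 with SAHA (SE 0.06, adjusted p = 9.55e-08).

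The adaptors Trat1, which binds the receptor complex, and Nck2, which links it to actin, had log2 fold changes of 2.67 and 2.61 with Smarcb1-RE. Both passed the filter only through the Smarcb1-RE libraries, so that a higher value there was favoured by the filter, and their values are given as a description with no test. Trat1 had 3 to 5 counts per control library and 21 to 28 per Smarcb1-RE library, and Nck2 0 to 6 and 16 to 24. Hras, a small GTPase of the Ras family, fell by 1.06 on the log2 scale with Smarcb1-RE (SE 0.06, adjusted p = 2.53e-09), from 34.4 to 38.1 CPM in control to 17.0 to 17.6 CPM.

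Genes that T cells switch on early after receptor engagement were nearly all higher with SAHA and went both ways with Smarcb1-RE. Of 12 such genes 11 were tested, and Cd40lg was not. With SAHA, 10 of the 11 were called higher and 0 lower, with a median log2 fold change of 1.40, beside 32.6% of all genes called higher. Egr3 is among the 10 and passed the filter only through the SAHA libraries. With Smarcb1-RE, 6 were higher and 4 lower, beside 39.2% and 38.6% of all genes, with a median of 0.53. Compared directly, 6 were lower and 2 higher in Smarcb1-RE than in SAHA, beside 36.8% and 37.7% of all genes, with a median of -0.81. The number higher became 5 with library totals only, beside 6441 of all 13697 genes. Egr3 is among these 6 too, and the filter favoured its lower value in Smarcb1-RE than in SAHA. The median also includes it. The labels name no stimulation of the receptor.

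Egr3, a zinc-finger factor induced by receptor signals, had 0.425, 0.380 and 0.329 CPM in control, 5.59, 6.54 and 7.71 CPM in SAHA and 0.128, 0.177 and 0 CPM in Smarcb1-RE libraries. It was high in all SAHA libraries and at 0 to 4 counts in each Smarcb1-RE library. Its log2 fold changes were 4.11 with SAHA and -5.96 between the treatments, given with no test since a higher value with SAHA was favoured by the filter. Egr3 fell by 1.85 with Smarcb1-RE (SE 0.55, adjusted p = 8.38e-03). Its relative Egr2 fell by 0.87 with Smarcb1-RE (SE 0.19, adjusted p = 1.04e-03), had a log2 fold change of 1.63 with SAHA (SE 0.16, adjusted p = 1.68e-06) and differed between the treatments by -2.50 (SE 0.17, adjusted p = 3.90e-08).

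Cd69, an early surface marker of activation, had 17.3, 13.5 and 13.7 CPM in control, 62.5, 81.4 and 77.1 CPM in SAHA and 26.6, 27.0 and 28.9 CPM in Smarcb1-RE libraries. The groups did not overlap and SAHA was highest, with a log2 fold change of 2.31 (SE 0.11, adjusted p = 4.35e-09). Nr4a3, a nuclear receptor induced by receptor signals, had 9.61, 12.7 and 12.9 CPM in control, 57.2, 51.7 and 54.9 CPM in SAHA and 61.9, 59.2 and 61.8 CPM in Smarcb1-RE libraries. Both treated groups were far above control, and the log2 fold change with Smarcb1-RE was 2.38 (SE 0.08, adjusted p = 9.25e-11). Il2ra, the alpha chain of the interleukin-2 receptor, rose by 1.74 with Smarcb1-RE (SE 0.22, adjusted p = 9.58e-06), from 0.507 to 0.699 CPM in control to 1.88 to 2.16 CPM. Tnfrsf9, a co-stimulatory receptor, and Nr4a2 were the genes called higher in Smarcb1-RE than in SAHA, by 0.30 (SE 0.04, adjusted p = 7.22e-06) and 0.15 (SE 0.06, adjusted p = 0.0262).

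**Figure D4:**
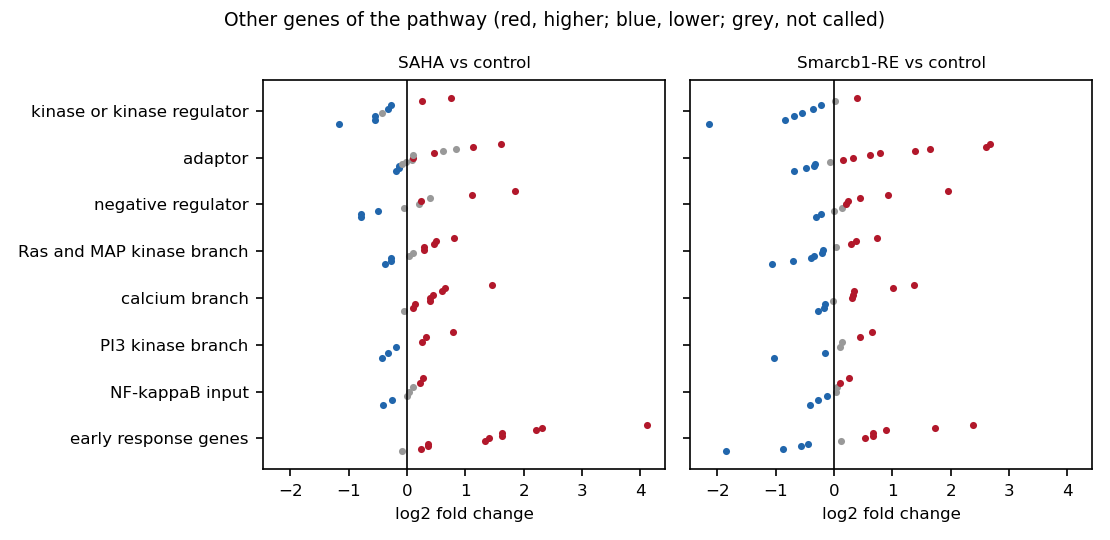
Log2 fold change of the 62 tested further pathway genes, by branch, and of the 11 tested early response genes (bottom row), with SAHA (left) and Smarcb1-RE (right) against control; each point is 1 gene, red called higher, blue lower and grey not called. The early response genes lie to the right of 0 with SAHA in all but 1 case, with Egr3 at 4.11, and on both sides with Smarcb1-RE, where Egr3 is at -1.85.

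Markers of other cell types moved with the groups at low levels, apart from a few genes. The summed level of 8 B-cell markers was 92.9 to 96.2 CPM in control, 102 to 112 CPM in SAHA and 155 to 163 CPM in Smarcb1-RE libraries, nearly all of it from Ebf1 with 91.6 to 155 CPM. The sum of 8 NK-cell markers was 424 to 467, 448 to 471 and 550 to 554 CPM, nearly all of it from Nkg7, which cytotoxic T cells also express, while Klra1 and Klra8 were at 0. The sum of 10 myeloid markers was 4.18 to 4.25, 8.62 to 9.91 and 2.98 to 3.32 CPM, with Fcgr1 at 0. The sum of 8 stromal or epithelial markers was 7.74 to 9.95, 9.18 to 10.3 and 66.4 to 68.7 CPM, the last nearly all from Pdgfra. The part of these genes in the results above was not tested.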

How the data were processed

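RNA-seq of T15 cells was analysed in 9 libraries (3 control, 3 SAHA, 3 Smarcb1-RE), grouped by the treatment label. The deposited table holds estimated counts per Ensembl identifier, raw and with 1 column per library. As 52.4% of the entries above 0 had decimals, they were rounded here. Library preparation kept the strand (NEBNext Ultra II Directional) and reads were single-end, and the submitters' processing notes name GRCm38, Salmon 0.14.1, DESeq2 1.22.2, FastQC 0.11.8 and MultiQC 1.7 without their roles. Salmon divides reads shared by similar transcripts by a model, so counts of genes with near-identical copies are uncertain. Gene names, coordinates and exon lengths came from GENCODE M21 (GRCm38), which held 99.5% of the identifiers.

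The test was edgeR's quasi-likelihood test (edgeR 4.0.16, R 4.3.3) in 1 fit of all 9 libraries with group as the only term, TMM factors, filterByExpr with a minimum count of 10 and Benjamini-Hochberg adjustment over all 13697 tested genes, called at an adjusted p under 0.05. SE was derived as the log2 fold change, without sign, over the root of its F statistic. Confidence intervals are 95%, and those of summed counts are exact conditional intervals that cover counting error only. RPKM are CPM per kilobase of the union of exons. On simulated counts with 200 changed genes, 77.1% of genes changed by 0.5 on the log2 scale and 91.3% of those changed by 1 were recovered for SAHA (13438 genes), and 77% and 93.8% for Smarcb1-RE (13433 genes). Of all calls made, 6.84% and 6.45% were false, above the 5% that the threshold aims at. Every simulated gene had a biological coefficient of variation of 5%. The simulation changed far fewer genes than were called here and had no library set apart, so its rates need not hold for these data.

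The members and lists were chosen with earlier results of these data known, as were the ratio pairs and motifs. Members were described by role, with values in every library for up to 3 members a role with the largest changes and for those not called or under the filter (Lat was added after its values were seen, because control replicate 1 stood apart in it), and of the other lists the 2 genes with the largest called changes per comparison and direction were named (Dgka, Orai1, Egr2 and the branches were also described where other values bore on them). Alternatives were DESeq2 1.42.0, median-ratio factors, library totals only, no filter, a minimum of 10 counts in all libraries, fits of 2 groups at a time, the replicate number as a block, calls limited to absolute log2 fold changes of 1 or more, and leaving out each library. Values of some genes that the rule for named genes would give are not reported here.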

Additional observations from a re-analysis of the deposited data

How the results depend on the processing

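Over all alternatives, 1236 of the log2 fold changes recomputed for the members kept their direction and their side of the threshold, while 26 lost the call, 15 gained one and 11 changed sign. None of the values that changed sign had been called. With library totals only, the median over all genes moved to 0.17 for Smarcb1-RE against control and to 0.18 for Smarcb1-RE against SAHA, and the split of all called genes from 5371 higher and 5282 lower to 6476 and 4141, and from 5170 and 5042 to 6441 and 3924. Members then gave 16 higher and 6 lower, and 18 higher and 7 lower. The other pathway genes lower in Smarcb1-RE than in control numbered 16 in place of 26, and the early response genes higher in Smarcb1-RE than in SAHA 5 in place of 2. Against control, Zap70 was then 0.14, Lcp2 0.09 and Bcl10 0.09, and Cd28 was 0.10 between the treatments. With at least 10 counts in every library, Zap70 in Smarcb1-RE against control was 0.04. TMM factors were 0.953 to 0.975 for control and SAHA and 1.07 to 1.08 for Smarcb1-RE libraries.

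Where a call also needed an absolute log2 fold change of 1 or more, members gave 3 higher and 0 lower with SAHA, 3 and 1 with Smarcb1-RE, and 3 and 1 between the treatments. Over all 13697 tested genes this gave 1349 higher and 322 lower with SAHA, and 2309 and 928 with Smarcb1-RE. Between the treatments it gave 1582 and 1124. Other pathway genes gave 5 and 1, 7 and 3, and 3 and 3, in the same order. Early response genes gave 2 higher and 1 lower with Smarcb1-RE, and 0 higher than in SAHA. Leaving out each library in turn, Zap70 in Smarcb1-RE against control ranged from -0.07 to 0.01, and between the treatments Lcp2 ranged from -0.02 to 0.05 and Themis from -0.01 to 0.03. With library totals only, Lcp2 and Themis were each 0.18 between the treatments and passed the test (adjusted p = 3.97e-03 and 1.09e-03). Early response genes higher in Smarcb1-RE than in SAHA ranged from 1 to 3, with 1 without any of the SAHA replicates and without Smarcb1-RE replicate 1 or 3. Grap2 is among the members counted in this paragraph but passed the filter only through the Smarcb1-RE libraries. Its higher value there than in SAHA was favoured by the filter, and no test of it is given. The member counted lower with Smarcb1-RE and between the treatments is Skap1. It passed the filter only through control and SAHA libraries, so its lower value was favoured by the filter too.

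Replicate numbers did not pair the libraries, as deviations of same-numbered libraries correlated between -0.059 and 0.038. A replicate block gave 4366 higher and 4664 lower genes with SAHA, 5335 and 5253 with Smarcb1-RE, and 5141 and 4996 between the treatments, and for the members the counts 13 and 7, 14 and 9, and 14 and 8, as without the block. Depth limits the 12 members under 1 CPM, for which differences rest on at most 44 counts per group.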
